A study of Rattus norvegicus with 25 samples.

Results

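The genes described here encode the subunits of the glutamate and GABA receptors, measured in the striatum of rats with a toxin lesion of the dopamine system. Members were every gene named as an AMPA (Gria), NMDA (Grin), kainate (Grik), delta (Grid) or metabotropic glutamate (Grm) receptor subunit, or as a GABA-A (Gabr) or GABA-B (Gabbr) subunit, with a summed count of at least 100 over the 25 libraries. The names of 47 genes matched, 41 of them reached that count, and 39 of the 41 passed the filter on low counts and were tested, out of 28909 gene names in the table and 14142 tested. The members are 18 ionotropic glutamate, 7 metabotropic glutamate and 16 GABA receptor genes. Just inside the threshold lay Gabrr2 with a summed count of 140 and Gabre with 194, and these were the 2 members not tested. Just outside lay Grm6 with 59, Gabrr1 with 42, Gabrr3 and Gabrq with 20 each and Gabra6 with 19, and Gabrp had a count of 0.

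Polyadenylated RNA was sequenced from the striatum on the lesioned side of 25 female Sprague Dawley rats, all of which had received 6-OHDA (6-hydroxydopamine, a toxin taken up by catecholamine neurons). All 3 arms received levodopa at 6 mg/kg QD, given alone in 1 arm (n = 5), with trapidil at 7.5 mg/kg BID in another (n = 10) and with trapidil at 15 mg/kg BID in the third (n = 10). The series title names levodopa/benserazide, benserazide being a peripheral decarboxylase inhibitor, and the arm descriptions do not mention it. The rats were dosed for 14 days, and tissue was taken on day 15, at a time tied to 1 hour of dosing without a statement of before or after. The drug trapidil opposes platelet-derived growth factor and inhibits phosphodiesterases. No unlesioned striatum, no lesioned striatum without levodopa and no trapidil without levodopa was analysed here, and the age of the animals was not given in the sources used here. Each comparison therefore concerns trapidil added to levodopa in lesioned striatum. Libraries were taken as separate animals; where that does not hold, the p-values measure only the spread between these samples.

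Glutamate reaches the striatum from cortex and thalamus and acts on the spiny projection neurons, which themselves release GABA. AMPA, NMDA and kainate receptors are ion channels built from several subunits, and the subunit mixture sets their speed, calcium entry and agonist affinity. The metabotropic receptors signal through G proteins, those of group I mostly after the synapse and those of groups II and III mostly on terminals, where they lower release. GABA-A receptors are chloride channels that usually combine alpha, beta and gamma or delta subunits, and GABA-B receptors are G protein-coupled pairs of Gabbr1 and Gabbr2.

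The promoters of the receptor gene that passed the test, Grik4, and of the member with the next smallest p, Gabrg3, are shown because their transcripts lay on opposite sides of the levodopa arm. Both are reference sequences from RefSeq on GRCr8, from 250 bases before to 50 bases after the start of the gene, written 5′ to 3′ on the gene's minus strand, with CG dinucleotides in capitals. The Grik4 window is chr8:52102014-52102313 and the Gabrg3 window is chr1:117382408-117382707.
Grik4: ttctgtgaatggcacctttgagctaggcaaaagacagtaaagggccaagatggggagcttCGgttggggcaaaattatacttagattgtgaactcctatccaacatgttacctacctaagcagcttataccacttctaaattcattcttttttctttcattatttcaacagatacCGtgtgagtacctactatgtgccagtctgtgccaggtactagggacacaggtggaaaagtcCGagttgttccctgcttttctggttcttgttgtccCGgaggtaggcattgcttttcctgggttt
Gabrg3: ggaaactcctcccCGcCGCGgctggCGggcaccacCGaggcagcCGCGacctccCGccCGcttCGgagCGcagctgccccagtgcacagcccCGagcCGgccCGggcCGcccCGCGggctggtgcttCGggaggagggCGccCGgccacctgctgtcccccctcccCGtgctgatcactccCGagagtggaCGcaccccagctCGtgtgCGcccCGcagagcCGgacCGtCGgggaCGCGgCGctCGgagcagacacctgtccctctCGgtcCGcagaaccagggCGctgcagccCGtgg
The Grik4 window held 4 CG dinucleotides with a GC content of 44.0%, and the Gabrg3 window held 37 with a GC content of 76.7%. A RefSeq promoter of this length was given for 25 of the 41 members, with a median of 11 CG dinucleotides, against a median of 7 over all 33469 promoters of the table. The cAMP response element TGACGTCA was searched on both strands and was in 1.83% of all promoters and in 0 of the 25. Its core TGACG, which the full element contains, was in 21.2% of all promoters and in 3 of the 25, and the AP-1 motif TGANTCA was in 7.33% and in 0 of the 25. None of the 3 motifs was in the Grik4 or the Gabrg3 window.

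Of the 39 receptor genes tested, 1 changed in any comparison: Grik4, a kainate receptor subunit, fell with 15 mg/kg trapidil. At that dose 1.31% of all genes tested passed the threshold (adjusted p below 0.05 in edgeR's quasi-likelihood test, p-values adjusted by Benjamini-Hochberg), and 1% passed it downward. With 7.5 mg/kg trapidil 0 of the 39 passed, with 0.0283% of all genes passing. At that dose DESeq2 called 0 of the 39, with 0.375% of all genes passing. limma-voom called 1, Grik4 (log2 fold change -0.53, adjusted p = 0.0353), with 0.721% of all genes passing. In edgeR at 7.5 mg/kg, 7 of the 39 had an unadjusted p below 0.05 against 11.7% of all genes. Between the doses 0 of the 39 passed, again with 0.0283% of all genes passing and 0 called by DESeq2 or limma-voom. There 2 had an unadjusted p below 0.05 against 3.63%. At 15 mg/kg 11 receptor genes had an unadjusted p below 0.05, against 19.5% of all genes tested. Of these, 6 had positive log2 fold changes, among them Gria1, Gria2, Gria4, Gabra2 and Gabrg3, and 8.26% of all genes were such. The 5 with negative ones were Grik1, Grik4, Grin2b, Grm2 and Grm3, against 11.2% of all genes. At 7.5 mg/kg the positive ones were Gabra2, Gabrb2 and Gabrg3 (3, against 5.02% of all genes) and the negative ones Grik4, Grin2b, Grm2 and Grm3 (4, against 6.64%). Both doses are set against the same 5 levodopa libraries, so their values stand side by side and are not independent.

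**Figure D1:**
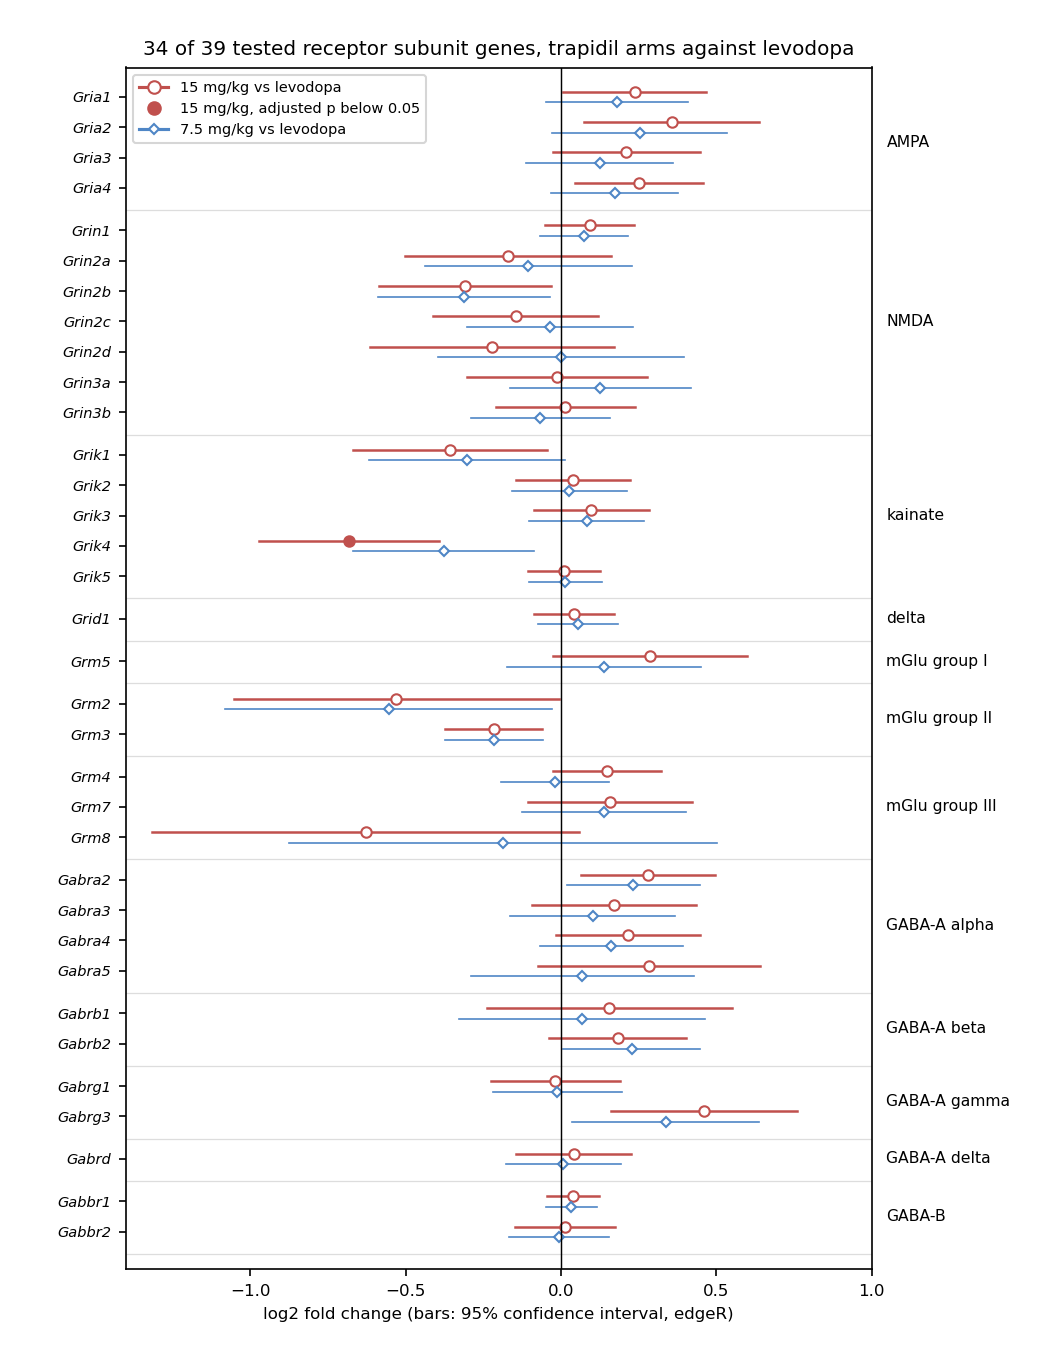
Log2 fold change of 34 of the 39 tested receptor subunit genes against levodopa (horizontal axis), grouped by receptor family, for 15 mg/kg (circles) and 7.5 mg/kg trapidil (diamonds), with 95% confidence intervals from edgeR. Grik4 at 15 mg/kg, at -0.68, is the 1 filled point, which marks an adjusted p below 0.05; both doses share the 5 levodopa libraries.

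Levels below are CPM (reads of a gene relative to the TMM-scaled library size) and differences are log2 fold changes with their standard errors. They are compared between arms and never between genes, since no transcript lengths were used. In this bulk tissue, fewer cells of a type and less RNA per cell cannot be told apart. The library of levodopa replicate 2 stood apart: it had the lowest level of its arm in 25 of the 39 tested members and the highest in 9. Spiny neuron markers, the defining genes of striatum, summed to 9752 CPM in it against 13168 to 16929 in the other levodopa libraries, and oligodendrocyte markers to 20195 CPM, the highest of all 25. Where a fold change named below moved by more than 1.5 times without it, that value follows. Total counts per library ran from 10838513, in the 7.5 mg/kg replicate 1, to 20532290. That shallowest library had the highest level of its arm in 11 of the 39 tested members and the lowest in 6.

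Kainate receptors hold the receptor gene with the smallest p. Grik4 encodes a high-affinity subunit that needs a partner among Grik1 to Grik3 to form a channel. Its levels in levodopa replicates 1 to 5 were 30.0, 35.1, 32.4, 23.8 and 31.7 CPM. With 7.5 mg/kg trapidil they ran from 16.9 to 36.6 CPM with a median of 21.1, and with 15 mg/kg from 15.6 to 23.7 CPM with a median of 19.1. All 10 libraries at 15 mg/kg lay below all 5 of levodopa alone, with 23.74 and 23.80 CPM as the nearest values; arms that did not overlap at this dose were found for 2 of the 39 members and for 0.707% of all genes. At 7.5 mg/kg this held for 0 of the 39 and for 0.0919% of all genes, and Grik4 overlapped, with 36.6, 30.9 and 29.3 CPM in replicates 1, 2 and 6 and 16.9 to 23.6 CPM in the other 7. The mean was 30.6 ± 4.22 CPM (SD, n = 5) with levodopa, 23.6 ± 6.54 (SD, n = 10) at 7.5 mg/kg and 19.0 ± 2.61 (SD, n = 10) at 15 mg/kg. Grik4 fell by 0.68 ± 0.14 (SE) on the log2 scale at 15 mg/kg, with a 95% confidence interval from -0.97 to -0.39 and an adjusted p of 0.0217 in edgeR. Its log2 fold change was -0.38 ± 0.14 at 7.5 mg/kg, with an unadjusted p of 0.013 and an adjusted p of 0.336, and -0.31 ± 0.12 between the doses, with an adjusted p of 0.999. The call at 15 mg/kg was lost without levodopa replicate 2 (log2 fold change -0.63, adjusted p = 0.0929) and without levodopa replicate 3 (-0.66, adjusted p = 0.0571), while DESeq2 gave -0.68 with an adjusted p of 0.00176.

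Grik4 was the kainate gene that differed, and its relatives had smaller values or wider errors. Grik5, the other high-affinity subunit, was at 311 ± 28.5 CPM (SD, n = 5) with levodopa, 314 ± 24.9 (SD, n = 10) at 7.5 mg/kg and 313 ± 11.2 (SD, n = 10) at 15 mg/kg. Within each library, the log2 ratio of Grik4 to Grik5 was -3.35 ± 0.26 with levodopa, -3.78 ± 0.32 at 7.5 mg/kg and -4.05 ± 0.20 at 15 mg/kg (SD). That ratio does not depend on library scaling, and its highest value at 15 mg/kg, -3.74, lay below its lowest value with levodopa, -3.62. Since the mean of Grik5 was nearly the same in the 3 arms, the ratio largely restates the Grik4 values and is no separate support for them. Grik1, a subunit that can form channels alone, ran from 2.55 to 3.82 CPM with levodopa and from 2.15 to 3.51 CPM at 15 mg/kg, and its log2 fold change of -0.36 ± 0.15 did not pass (edgeR adjusted p = 0.194). Grik2 and Grik3, the other low-affinity subunits, averaged 73.2 and 51.3 CPM with levodopa and 75.3 and 55.0 CPM at 15 mg/kg, each with overlapping arms.

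Markers of other cell types passed the same test at 15 mg/kg, most of them of oligodendrocytes. All 13 oligodendrocyte markers were in the table and none was at 0. By the same edgeR test 7 of the 13 fell at 15 mg/kg and 0 rose, with 1% of all genes called lower. Without levodopa replicate 2 or 3, 0 of the 13 passed, but only 0.141% and 0.0633% of all genes passed in those fits. All 13 markers still had negative log2 fold changes in both. Their summed level ran from 11089 to 20195 CPM with levodopa (median 13774), from 7677 to 16913 at 7.5 mg/kg (median 10390) and from 6773 to 14244 at 15 mg/kg (median 8797). In the 7.5 mg/kg replicates 1, 2 and 6, where Grik4 was highest, the sum was 16913, 12078 and 15974 CPM. Replicate 3 of that arm had 14496 CPM with Grik4 at 23.6 CPM. Levodopa replicate 5 had the lowest sum of its arm, 11089 CPM, with Grik4 at 31.7 CPM. At 15 mg/kg replicate 4 had both the highest sum, 14244 CPM, and the highest Grik4 level, 23.7 CPM. Replicates 2 and 5 came next in both, with sums of 10277 and 10117 CPM and Grik4 at 20.96 and 21.7 CPM. Replicates 6 and 9 had the lowest Grik4 levels of that arm, 15.6 and 15.7 CPM, with sums of 7704 and 8928 CPM. Ependymal markers, of which 11 of 12 were in the table and none was at 0, summed to 8.87 to 113 CPM with levodopa (median 17.2), 9.94 to 155 at 7.5 mg/kg (median 56.1) and 42.3 to 126 at 15 mg/kg (median 84.4). All 11 log2 fold changes were positive at 15 mg/kg, the opposite sign to Grik4, and 6 had an unadjusted p below 0.05 in edgeR, all of them higher. In edgeR and DESeq2 0 of the 11 passed, and in limma-voom 4 (5.06% of all genes). Without levodopa replicate 4, whose sum was 113 CPM, 6 passed (6.29% of all genes). Spiny neuron markers, 14 of 14 in the table and none at 0, had medians of 15103, 14910 and 14624 CPM in the 3 arms. By gene, 12 of the 14 had positive log2 fold changes at 15 mg/kg with a median of 0.099, 3 of them at an unadjusted p below 0.05, and without levodopa replicate 2 it was 6 of 14 with a median of -0.012. Endothelial markers, 9 of 12 in the table and 1 of them at 0, had negative log2 fold changes at 15 mg/kg in all 8 tested, each with an unadjusted p below 0.05, and Slco1a4 passed (adjusted p = 0.0463). Their sums ran from 329 to 616 CPM with levodopa and from 270 to 339 CPM at 15 mg/kg. Of 10 oligodendrocyte precursor markers all 10 had negative values, 6 had an unadjusted p below 0.05 and Sox10 passed (adjusted p = 0.0464). Their sums, with none at 0, ran from 880 to 1457 CPM and from 724 to 1007 CPM. Of 9 microglia markers 8 had negative values, 5 had an unadjusted p below 0.05 and 0 passed, with sums of 403 to 705 CPM and 365 to 462 CPM and none at 0. Levodopa replicate 2 had the highest sum in these 3 lists, and without it 0 of their genes passed and 2, 2 and 0 had an unadjusted p below 0.05. In that fit 0.141% of all genes passed and 12.7% had an unadjusted p below 0.05. Of 10 choroid plexus markers in the table, 1 of them at 0, 5 were tested, with 3 positive and 2 negative log2 fold changes at 15 mg/kg. Ttr was the 1 that passed (log2 fold change -5.11, edgeR adjusted p = 0.0217), and without levodopa replicate 2 its adjusted p was 0.846. The part of these cell types in the Grik4 values was not tested. The covariate fits that follow cannot tell it apart from the arm, since the oligodendrocyte and ependymal markers also moved with the arm. With the oligodendrocyte score as a covariate the log2 fold change of Grik4 at 15 mg/kg was -0.25 ± 0.11 (adjusted p = 0.716), with the ependymal score -0.38 ± 0.11 (adjusted p = 0.144) and with the spiny neuron score -0.64 ± 0.15 (adjusted p = 0.0443). Those scores were chosen after seeing the data, and with 2 surrogate variables the value was -0.25 ± 0.09 (adjusted p = 0.22).

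**Figure D2:**
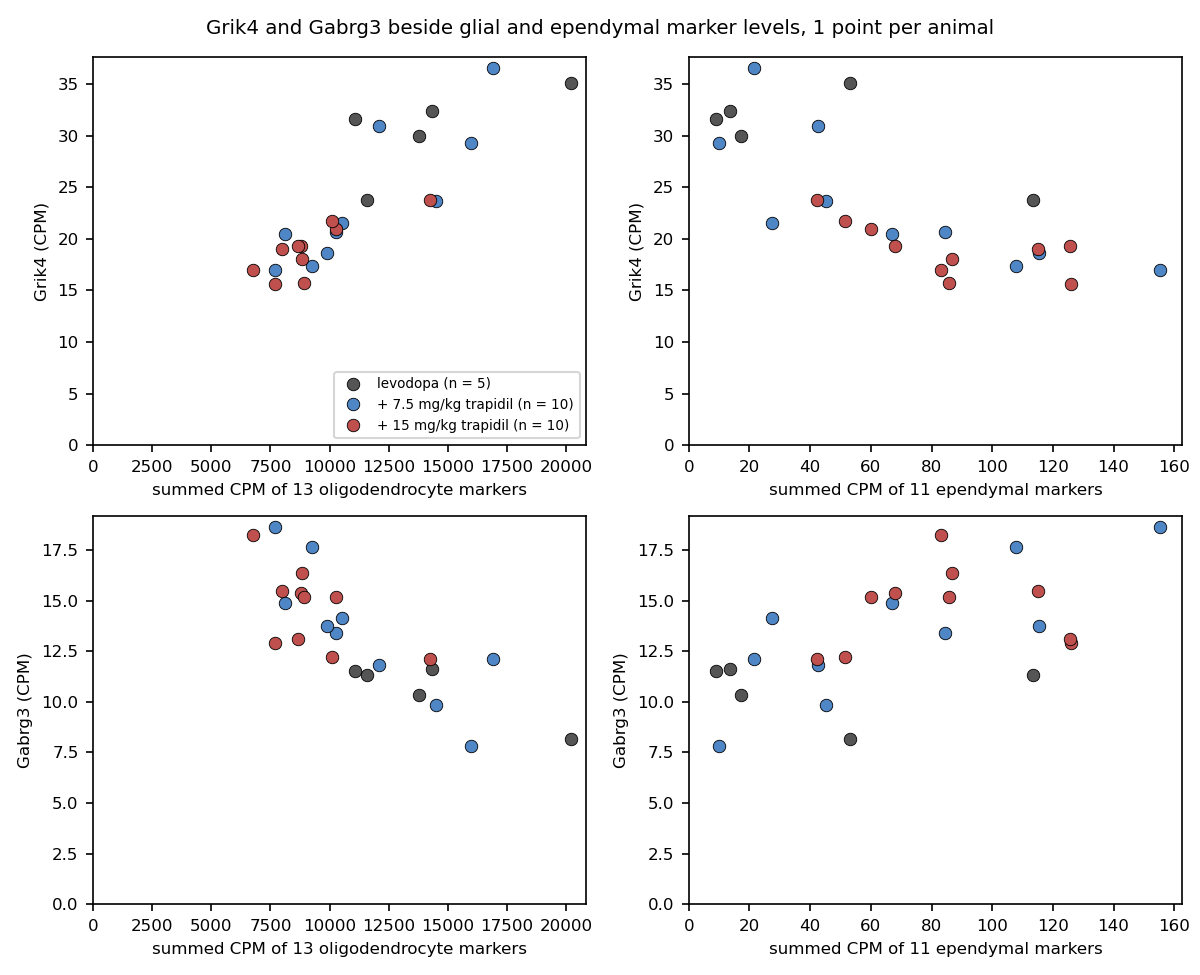
Summed CPM of 13 oligodendrocyte markers and of the ependymal markers in each library (horizontal axes) against the level of Grik4 or Gabrg3 in CPM (vertical axes); each point is 1 library, coloured by arm. The library with the highest oligodendrocyte sum, levodopa replicate 2 at 20195 CPM, had 35.1 CPM of Grik4, and at 15 mg/kg the highest Grik4 level was 23.7 CPM.

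AMPA receptor genes all had positive log2 fold changes, and none of the 4 passed in edgeR, DESeq2 or limma-voom. Gria2, whose edited subunit blocks calcium entry, was at 492, 300, 549, 626 and 525 CPM in levodopa replicates 1 to 5. It ran from 386 to 704 CPM with a median of 638 at 7.5 mg/kg and from 517 to 746 CPM with a median of 645 at 15 mg/kg. Replicate 2 was the low levodopa library, and 3 of the other 4 lay inside the range at 15 mg/kg. The log2 fold change of Gria2 at 15 mg/kg was 0.36 ± 0.14 with an adjusted p of 0.15 in edgeR. Gria1, a subunit recruited to synapses during plasticity, was at 176, 87.1, 185, 175 and 162 CPM with levodopa and ran from 166 to 214 CPM with a median of 183 at 15 mg/kg. Its log2 fold change was 0.24 ± 0.11 (adjusted p = 0.237 in edgeR), that of Gria3 was 0.21 ± 0.12 and that of Gria4 was 0.25 ± 0.10 (adjusted p = 0.163). The median over the 4 genes was 0.24 at 15 mg/kg and 0.18 at 7.5 mg/kg, and 0.12 at 15 mg/kg without levodopa replicate 2, with all 4 still positive (Gria1 0.088, Gria2 0.22, Gria3 0.087 and Gria4 0.15). With the oligodendrocyte score as a covariate, Gria2, Gria3 and Gria4 had values of -0.042, -0.11 and -0.010, and with 2 surrogate variables Gria2 and Gria3 had values of -0.0075 and -0.051. The log2 ratio of Gria1 to Gria2 within a library was -1.67 ± 0.15 with levodopa, -1.72 ± 0.29 at 7.5 mg/kg and -1.78 ± 0.12 at 15 mg/kg (SD), so the arms overlapped in it.

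**Figure D3:**
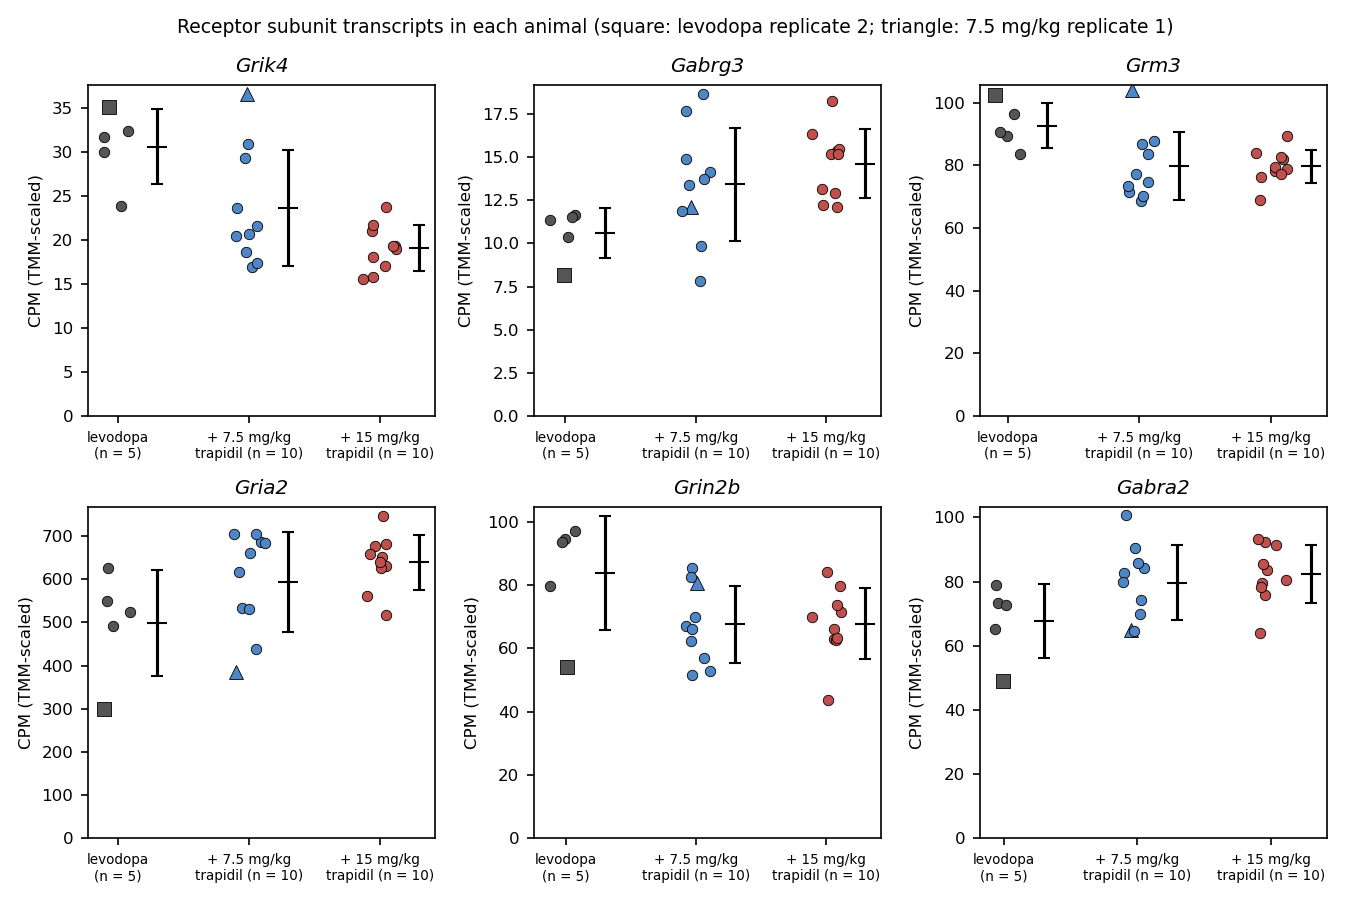
CPM (TMM-scaled) of 6 receptor subunit genes in each library, by arm, with the mean and SD beside the points; the square is levodopa replicate 2 and the triangle is the 7.5 mg/kg replicate 1. Grik4 and Gabrg3 are the genes whose 15 mg/kg and levodopa points do not overlap, and in Gria2 and Gabra2 the square is the lowest of its arm.

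NMDA receptor genes were mostly on the negative side at 15 mg/kg, with 2 of 7 positive and a median of -0.15, and none passed; without levodopa replicate 2 the median was -0.08 with 1 of 7 positive. Grin1, the subunit that every NMDA receptor needs, was at 714, 485, 714, 671 and 724 CPM in levodopa replicates 1 to 5 and ran from 662 to 766 CPM with a median of 705 at 15 mg/kg. Replicate 2 was again the low library, and the log2 fold change was 0.09 ± 0.07, or 0.0017 without it. Grin2b, which gives slow, high-affinity receptors, was at 94.7, 54.0, 97.1, 93.6 and 79.7 CPM with levodopa. It ran from 51.7 to 85.2 CPM at 7.5 mg/kg with a median of 66.7 and from 43.6 to 84.2 CPM at 15 mg/kg with a median of 68.0. Here levodopa replicate 2 lay among the trapidil libraries and the other 4 toward or above their upper end. The log2 fold change of Grin2b was -0.31 ± 0.14 at 7.5 mg/kg and -0.31 ± 0.13 at 15 mg/kg, with edgeR adjusted p-values of 0.384 and 0.202. limma-voom with quality weights called Grin2b at 15 mg/kg (-0.39, adjusted p = 0.0493), where 5.06% of all genes passed. Grin2a, the subunit of faster receptors, was at 39.01, 14.9, 48.0, 41.5 and 39.7 CPM with levodopa and ran from 27.9 to 37.9 CPM at 15 mg/kg, with a log2 fold change of -0.17 ± 0.16. Without levodopa replicate 2 it was -0.37 ± 0.11 (edgeR adjusted p = 0.175). The log2 ratio of Grin2a to Grin2b was -1.27 ± 0.35 with levodopa, -0.99 ± 0.27 at 7.5 mg/kg and -1.04 ± 0.23 at 15 mg/kg (SD); without replicate 2 the levodopa mean was -1.12. Of the rest, Grin2c and Grin2d averaged 126 and 12.4 CPM with levodopa and 114 and 10.6 CPM at 15 mg/kg, and Grin3a and Grin3b, whose subunits reduce calcium entry, averaged 8.35 and 12.1 CPM against 8.29 and 12.2 CPM. Grid1, a delta receptor that acts as a synaptic organiser, had a log2 fold change of 0.04 ± 0.06 at 15 mg/kg, or -0.023 without levodopa replicate 2.

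Metabotropic receptors showed values of both signs, and none of the 7 passed in edgeR, DESeq2 or limma-voom; 2 of the 7 (28.6%) had an unadjusted p below 0.05 at 15 mg/kg, against 19.5% of all genes. Grm3, a group II receptor found on astrocytes as well as on terminals, was at 89.5, 103, 96.5, 90.8 and 83.7 CPM in levodopa replicates 1 to 5. It ran from 68.5 to 104 CPM at 7.5 mg/kg with a median of 76.0 and from 69.0 to 89.3 CPM at 15 mg/kg with a median of 79.1. All 10 libraries at 15 mg/kg and 9 of 10 at 7.5 mg/kg lay below the levodopa mean, though the arms overlapped. Such a count is no measure of the difference: in Grin1 all 10 at 15 mg/kg lay above that mean, with an edgeR unadjusted p of 0.194. The log2 fold change of Grm3 was -0.22 ± 0.08 at each dose, with unadjusted p-values of 0.00879 and 0.00862 and edgeR adjusted p-values of 0.299 and 0.118 at 7.5 and 15 mg/kg. Astrocyte markers, 10 of 10 in the table and none at 0, summed to 3713 to 7345 CPM with levodopa, 3423 to 4917 at 7.5 mg/kg and 3029 to 4625 at 15 mg/kg, the highest in levodopa replicate 2. By gene, all 10 had negative log2 fold changes at each dose, with medians of -0.14 at 7.5 mg/kg and -0.18 at 15 mg/kg. At 15 mg/kg 3 of the 10 had an unadjusted p below 0.05 in edgeR, against 19.5% of all genes, and 0 passed. The part of these markers in the Grm3 values was not tested. Without the 7.5 mg/kg replicate 1, whose 104 CPM was the highest of all, Grm3 passed at 15 mg/kg (adjusted p = 0.047). In that fit 4.52% of all genes passed. Grm2, the other group II receptor, averaged 3.19 ± 1.01 CPM (SD, n = 5) with levodopa and 2.21 ± 0.64 (SD, n = 10) at 15 mg/kg, with log2 fold changes of -0.55 ± 0.26 and -0.53 ± 0.26 at the lower and higher dose.

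Group I and III receptors overlapped between the arms. Grm5, the group I receptor of spiny neurons, was at 130, 52.6, 132, 172 and 121 CPM in levodopa replicates 1 to 5 and ran from 120 to 176 CPM with a median of 149 at 15 mg/kg. Its log2 fold change of 0.29 ± 0.15 had an unadjusted p of 0.0713, and without levodopa replicate 2 it was 0.098. The log2 ratio of Grm5 to Grm3 ran from -0.96 to 0.92 with levodopa and from 0.52 to 1.18 at 15 mg/kg, with means of 0.29 ± 0.73 and 0.89 ± 0.21 (SD). The lowest value was that of levodopa replicate 2, and without it the levodopa mean was 0.61. Grm4, a group III receptor of striatal output and cortical terminals, averaged 70.5 ± 9.13 CPM with levodopa, 69.5 ± 7.46 at 7.5 mg/kg and 78.1 ± 7.86 at 15 mg/kg (SD), and its log2 fold change at 15 mg/kg was 0.15, or 0.084 without levodopa replicate 2; between the doses it was 0.17 ± 0.07 with an adjusted p of 0.999. Grm8, also of group III, was at 5.67, 2.53, 5.61, 6.07 and 5.05 CPM with levodopa and ran from 1.00 to 6.51 CPM at 15 mg/kg, with a log2 fold change of -0.63 ± 0.34. Its size was close to that of Grik4, with a larger error. Grm7, the third of that group, averaged 23.8 and 26.6 CPM in the levodopa and 15 mg/kg arms.

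GABA receptor genes were mainly on the positive side, with 12 of 14 tested members above 0 at 15 mg/kg and a median of 0.18, and 11 of 14 at 7.5 mg/kg with a median of 0.09; none passed. Without levodopa replicate 2 it was again 12 of 14 at 15 mg/kg, with a median of 0.10, and with the oligodendrocyte score as a covariate it was 8 of 14 with a median of 0.02. Over all genes tested, 50.2% were above 0 at 15 mg/kg and 51.1% at 7.5 mg/kg. Gabrg3, a less common gamma subunit, had the smallest p among them. It was at 10.4, 8.14, 11.6, 11.3 and 11.5 CPM in levodopa replicates 1 to 5, ran from 7.80 to 18.7 CPM with a median of 13.6 at 7.5 mg/kg and from 12.1 to 18.3 CPM with a median of 15.2 at 15 mg/kg. All 10 libraries at 15 mg/kg lay above all 5 of levodopa alone, and the arms overlapped at 7.5 mg/kg. The log2 fold change at 15 mg/kg was 0.46 ± 0.15, with an unadjusted p of 0.00397 and an adjusted p of 0.0864 in edgeR. Gabrg3 passed in DESeq2 (adjusted p = 0.0445) and in a fit of the 2 arms alone (adjusted p = 0.0313), where 4.63% and 3.21% of all genes passed. It also passed without the 7.5 mg/kg replicate 6 (adjusted p = 0.0491), where 2.4% of all genes passed. Its log2 fold change was 0.38 without levodopa replicate 2 and the 7.5 mg/kg replicate 1, 0.06 with the oligodendrocyte score and 0.25 with the ependymal score as a covariate, and 0.10 with 2 surrogate variables. At 7.5 mg/kg it was 0.34 ± 0.15 with an adjusted p of 0.386.

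The alpha subunits carry part of the GABA site and shape drug sensitivity. Gabra2, a synaptic subunit, was at 65.1, 49.0, 73.3, 78.9 and 72.6 CPM in levodopa replicates 1 to 5, ran from 64.4 to 101 CPM at 7.5 mg/kg with a median of 81.2 and from 63.8 to 93.2 CPM at 15 mg/kg with a median of 82.1. Its log2 fold change was 0.23 ± 0.10 at 7.5 mg/kg and 0.28 ± 0.10 at 15 mg/kg, with edgeR adjusted p-values of 0.395 and 0.136. It was 0.14 and 0.19 without levodopa replicate 2, and -0.030 at 15 mg/kg with the oligodendrocyte score as a covariate. Gabra4, which pairs with the delta subunit in extrasynaptic receptors, was at 271, 157, 291, 320 and 293 CPM with levodopa and ran from 263 to 364 CPM at 15 mg/kg, with a log2 fold change of 0.22 ± 0.11, or 0.077 without levodopa replicate 2. Gabra5, another mainly extrasynaptic subunit, had 0.28 ± 0.17, and Gabra3 averaged 16.0 and 18.0 CPM.

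Beta and gamma subunits complete the channel, the beta with the other part of the GABA site and the gamma anchoring receptors at synapses. Gabrb1 and Gabrb2 had log2 fold changes of 0.16 ± 0.19 and 0.18 ± 0.11 at 15 mg/kg, and 0.21 and 0.10 without levodopa replicate 2. Gabrg1 had a log2 fold change of -0.02 ± 0.10, or 0.092 without levodopa replicate 2. In the RefSeq gene order of GRCr8, Gabrb1, Gabra4, Gabra2 and Gabrg1 are neighbours on chromosome 14, and of these Gabrg1 had the negative value.

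The extrasynaptic delta subunit and the GABA-B receptor had fold changes near 0. Gabrd was at 87.9, 54.5, 73.3, 93.6 and 72.6 CPM with levodopa and ran from 71.5 to 95.8 CPM at 15 mg/kg, with a log2 fold change of 0.04 ± 0.09, a 95% confidence interval from -0.14 to 0.23, and a value of -0.055 without levodopa replicate 2. Gabbr1, the subunit that binds GABA, was at 1623, 1540, 1600, 1517 and 1606 CPM with levodopa and ran from 1543 to 1671 CPM at 15 mg/kg. Over all 25 libraries its coefficient of variation of 3.34% was the smallest of the members, and its log2 fold change of 0.04 ± 0.04 had a 95% confidence interval from -0.04 to 0.12. Gabbr2, the subunit that couples to the G protein, averaged 66.3, 66.0 and 66.8 CPM in the 3 arms, with a log2 fold change of 0.01 ± 0.08 at 15 mg/kg, or 0.034 without levodopa replicate 2. Of the members not tested, Gabre was at 2.04 CPM in levodopa replicate 2 and 0.372 to 0.477 CPM in the other 4, and Gabrr2 ran from 0 to 0.602 CPM over all libraries.

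**Figure D4:**
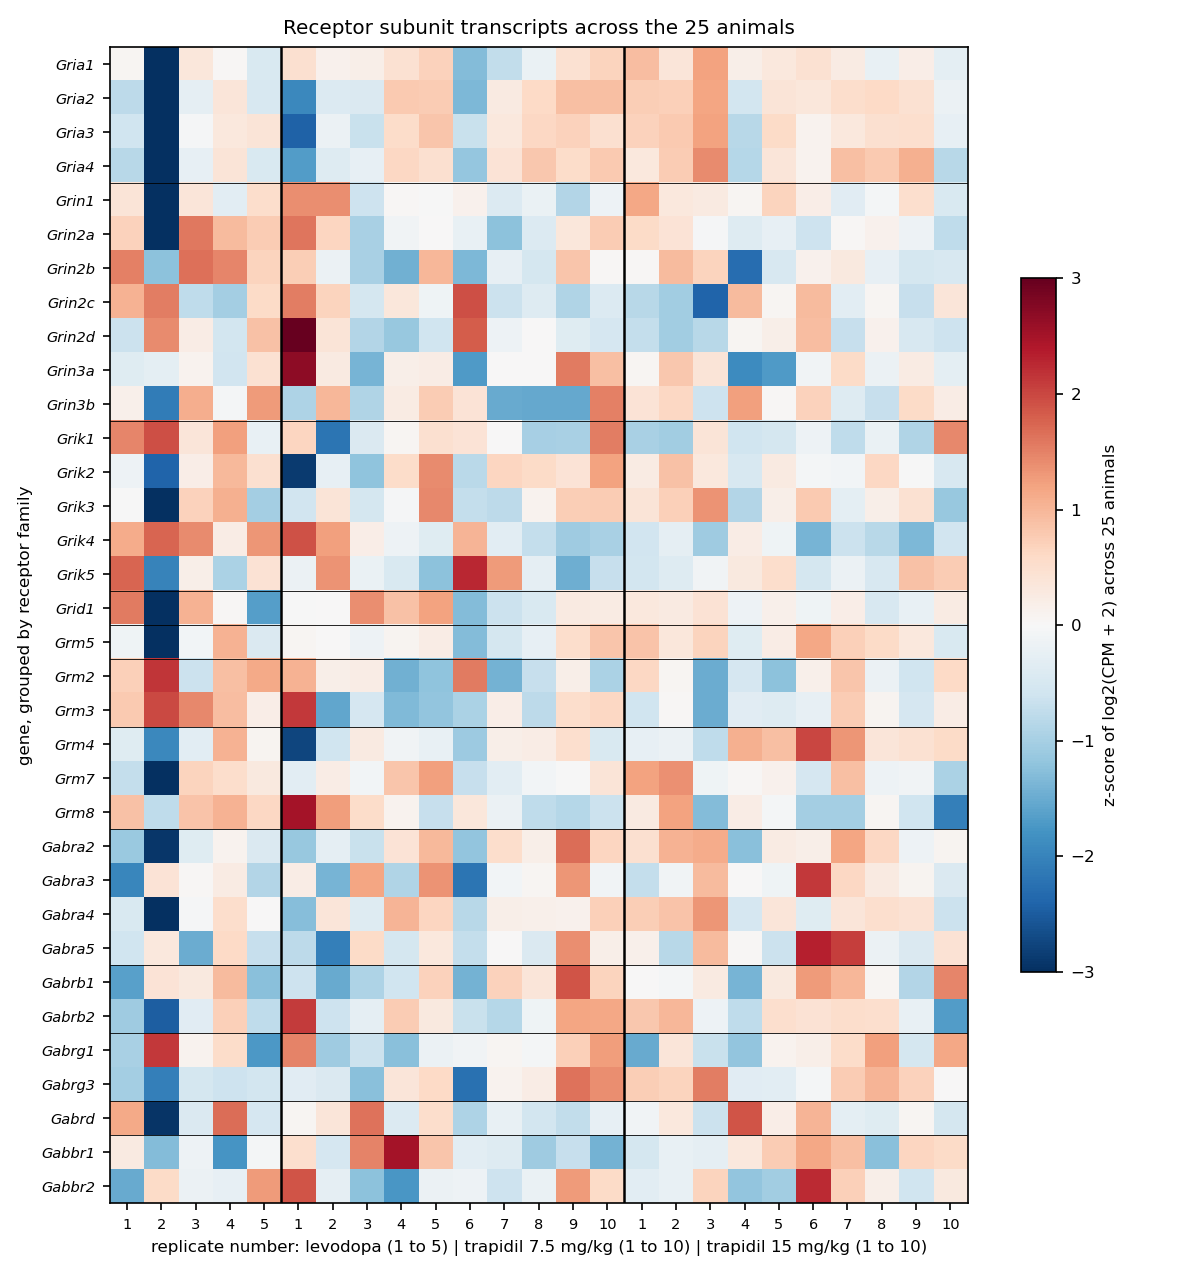
Level of 34 tested receptor genes (rows, by family) in each library (columns, by arm) as a z-score of log2 CPM over the 25 libraries, with the colour scale ending at 3 in each direction. Levodopa replicate 2 is the lowest of its arm in many rows (25 of all 39 tested genes), and Grik4 is lower in all 10 libraries at 15 mg/kg than in any levodopa library.

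As a group the members varied about as much as other genes did. The median coefficient of variation over 25 libraries was 14.8% for the 39 tested members and 13.7% for all genes tested. The median log2 fold change was 0.03, 0.04 and 0.02 for 7.5 mg/kg against levodopa, 15 mg/kg against levodopa and the doses against each other. In the same order 24, 26 and 25 of the 39 values were above 0, against 51.1%, 50.2% and 48.8% of all genes. The median absolute log2 fold change at 15 mg/kg was 0.18 for the members and 0.11 for all genes. Without levodopa replicate 2 the count above 0 at 15 mg/kg was 19 of 39, and 6 rather than 11 members had an unadjusted p below 0.05, against 12.7% of all genes. In the same fit 20 rather than 185 of all genes passed. At 7.5 mg/kg 20 of 39 were then above 0.

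Genes that work with these receptors were counted from 2 lists. Of 44 auxiliary subunit and scaffold genes 39 were tested, and 0 passed in each comparison. At 15 mg/kg 8 had an unadjusted p below 0.05 with a positive and 3 with a negative log2 fold change, against 8.26% and 11.2% of all genes, and the median was 0.09. DESeq2 called 4 and limma-voom 2 of the 39 at 15 mg/kg (4.63% and 5.06% of all genes). At 7.5 mg/kg limma-voom called 1 (0.721% of all genes), and the remaining counts by these tools were 0. Grip1, a scaffold that binds AMPA receptor tails, had the smallest p. It was at 19.4, 14.4, 24.1, 19.1 and 20.1 CPM in levodopa replicates 1 to 5 and ran from 19.9 to 30.6 CPM at 15 mg/kg. Its log2 fold change was 0.38 ± 0.11 with an edgeR adjusted p of 0.0691, and it passed in DESeq2 (adjusted p = 0.0303). It also passed when the 7.5 mg/kg replicate 1 or 6 or the 15 mg/kg replicate 4 was left out (adjusted p = 0.0489, 0.0496 and 0.0393). In those fits 4.52%, 2.4% and 3.09% of all genes passed. Of 18 genes for making, packing and clearing glutamate and GABA, 1 passed downward at 15 mg/kg, against 1% of all genes. This was Slc17a6, the vesicular glutamate transporter of thalamic neurons. Slc17a6 was at 0.220, 10.98, 0.239, 1.00 and 0.797 CPM in levodopa replicates 1 to 5 and from 0 to 0.296 CPM at 15 mg/kg. The high library was levodopa replicate 2, and the arms overlapped. The log2 fold change was -3.71 ± 0.77 with an edgeR adjusted p of 0.0217; without levodopa replicate 2 it was -1.53 with an adjusted p of 0.361, and with limma-voom -1.36 with an adjusted p of 0.165.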

How the data were processed

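Polyadenylated RNA of 25 striatal samples was sequenced, and raw read counts per gene were deposited by the authors as 1 table. Per the submitters' processing notes, FastQC, STAR and HTSeq were used with the Rnor_6.0 build; versions, annotation and strand setting are not given in the sources used here. Whether reads of overlapping and antisense genes were kept apart is therefore not known. Arms were read from the sample titles. No pair of libraries agreed within sampling noise: counting only genes of 20 reads or more, chi-square divided by its degrees of freedom was 3.84 or more in all 300 pairs.

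Genes kept by filterByExpr (14142) were scaled by TMM and tested with edgeR 4.0.16 in R 4.3.3, by the quasi-likelihood test on all 25 libraries with arm as the factor (biological coefficient of variation 0.139). Tests were two-sided, adjusted by Benjamini-Hochberg over all genes tested, with a threshold of 0.05. Every adjusted p is from this test unless DESeq2 1.42.0 or limma 3.58.1 (limma-voom with sample quality weights) is named. The code was tested on simulated data. Total counts of 10838513 to 20532290 per library set the precision for genes of few reads. CPM values are TMM-scaled counts, and their errors are SD; errors of log2 fold changes are SE. A score used as a covariate is the mean z-score of log2(CPM + 2) over a marker list.

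Named with values were members passing any test or with an unadjusted p below 0.01, the member of each family with the smallest p at 15 mg/kg, 12 receptor genes whatever their result and the members nearest the count threshold; other members are named to complete their families, after their values were seen. Some members are kept in every count and are not reported here by name. The members and lists were chosen with earlier results of these data known. Promoters are from RefSeq (GRCr8) and no Rnor_6.0 coordinates were used. Alternatives changed the normalization, filter, tool, libraries and covariates, including 2 surrogate variables from svaseq (sva 3.50.0).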

Additional observations from a re-analysis of the deposited data

Results flagged for a closer look

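Among 17 of the receptor genes named by rule, each of 3 arms was checked for a library standing far from the rest, 51 groups in all, and 7 had one (13.7%). The rule is set so that chance gives about 1 in 20 in independent groups; these groups share the same 25 libraries, and whether the share exceeds chance was not tested. In 4 of the 7 the library was levodopa replicate 2, and it was low each time. Gria1 was at 87.1 CPM there, with 162 CPM in the nearest library of the arm, Grin1 at 485.0 with 671, Grin2a at 14.9 with 39.01 and Grm8 at 2.53 with 5.05. The 7.5 mg/kg replicate 1 was high in Grm8, at 10.8 CPM with 6.63 in the nearest library. At 15 mg/kg Grin2b was low in replicate 4, at 43.6 CPM with 62.6 in the nearest library, and Gabbr2 was high in replicate 6, at 82.2 CPM with 70.9.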

How the results depend on the processing

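RLE and upper quartile scaling, both filters on low counts, and the cortical score as a covariate left the count of receptor genes called as reported. At 15 mg/kg it was 2 in place of 1 with DESeq2 (Grik4 and Gabrg3), with limma-voom (Grik4 and Grin2b) and with the 2 arms alone in the fit (Grik4 and Gabrg3). In these settings 4.63%, 5.06% and 3.21% of all genes passed. The count was 0 with 2 surrogate variables, the oligodendrocyte score or the ependymal score, with 0.106%, 0.0495% and 0.0424% of all genes passing. When 1 library was left out it ran from 0 to 2. It was 0 without levodopa replicate 2 or 3, with 0.141% and 0.0633% of all genes passing. Without the 7.5 mg/kg replicate 1 or 6 it was 2, with 4.52% and 2.4% of all genes passing. At 7.5 mg/kg it was 1 with limma-voom, with 0.721% of all genes passing. The median log2 fold change at 15 mg/kg was -0.0020 with 2 surrogate variables, -0.00047 without levodopa replicate 2 and the 7.5 mg/kg replicate 1, -0.0153 with the oligodendrocyte score and -6.3e-05 (without levodopa replicate 2) to 0.098 (without replicate 4) with 1 library left out. The oligodendrocyte, ependymal and spiny neuron scores were added after seeing the data.

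The replicate number showed little sign of pairing the libraries. Same-numbered libraries had a median correlation of deviations of -0.13 over 5 numbers (levodopa and 7.5 mg/kg) and 0.12 over 5 (levodopa and 15 mg/kg). Over 10 numbers (both doses) it was 0.06. In the same order 2, 3 and 3 correlations were above 0.1, and 1, 1 and 2 libraries were closest to their own number. These few values do not exclude pairing by number. With the replicate block 0 receptor genes were called at 15 mg/kg (Grik4 -0.53, adjusted p = 0.174), 0 in place of 185 of all genes passed, and Slc17a6 was at -2.61. Under it Gabbr2 was at -0.044 and Gabrb1 at -0.022.

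Among the members named, these fold changes at 15 mg/kg turned sign, all in genes that had not passed. With limma-voom Gabbr2 was at -0.0019, Gabrg1 at 0.087 and Grid1 at -0.0018. With 2 surrogate variables Gabbr2 was at -0.0020, Gabrb1 at -0.26, Gria2 at -0.0075, Gria3 at -0.051, Grid1 at -0.0052 and Grm4 at -0.014. With the oligodendrocyte score Gabbr2 was at -0.064, Gabra2 at -0.030, Gabra4 at -0.024, Gabra5 at -0.028, Gabrb1 at -0.28, Gabrg1 at 0.042, Gria2 at -0.042, Gria3 at -0.11, Gria4 at -0.010, Grid1 at -0.0038 and Grm8 at 0.057. With the ependymal score Gabbr2 was at -0.043, Gabra5 at -0.023 and Gabrb1 at -0.27, and with the spiny neuron score Gabrd at -0.023, Gabrg1 at 0.11 and Grid1 at -0.012. Without levodopa replicate 2 and the 7.5 mg/kg replicate 1, Gabrd was at -0.055, Gabrg1 at 0.092 and Grid1 at -0.023. With 1 library left out Gabbr2 ran from -0.037 to 0.062, Gabrd from -0.055 to 0.13, Gabrg1 from -0.091 to 0.092 and Grid1 from -0.023 to 0.10; Gabrd and Grid1 turned sign without levodopa replicate 2, Gabbr2 without levodopa replicate 1 or the 15 mg/kg replicate 6, and Gabrg1 when any 1 of levodopa replicates 2 and 4 and 15 mg/kg replicates 1 and 4 was absent.

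Of all genes tested at 15 mg/kg, 185 passed; the number was 655 with DESeq2, 715 with limma-voom, 448 with the 2 arms alone, 15, 7, 6 and 64 with 2 surrogate variables and the oligodendrocyte, ependymal and spiny neuron scores, 76 without both levodopa replicate 2 and 7.5 mg/kg replicate 1, and from 9 (without levodopa replicate 3) to 894 (without levodopa replicate 4) with 1 library left out. Slc17a6 gave no value where it failed the filter: at 1 CPM in 5 libraries, with the 2 arms alone, without that pair of libraries, and without the 7.5 mg/kg replicate 1 or 6. The cause of these differences was not tested. Counting error is largest for the members of few reads, such as Grik1, Grm2 and Grm8; its part in their spread was not tested.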
